A study of Rattus norvegicus with 6 samples.

Results

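The genes described here encode 3 families of RNA-binding splicing factors: the SRSF genes of the serine and arginine-rich (SR) proteins, the hnRNP genes of the heterogeneous nuclear ribonucleoproteins, and the numbered RBM genes of RNA-binding motif proteins. They were taken by symbol from the deposited table, as Srsf or Rbm followed by a number or Hnrnp followed by its letters, which gave 67 of 20675 rows: 11 SRSF, 19 hnRNP and 37 RBM genes. RNA was sequenced from primary rat temporomandibular joint disc cells, the cells of the fibrous pad between the bones of the jaw joint. In 1 group the cells were given GSK101, an agonist of the calcium-permeable channel TRPV4, for 24 h, and in the other the solvent DMSO for 24 h (the Ctrl group). Each group had 3 libraries, and the sources used here give no strain, sex, age or concentration and do not tell if the replicates were different animals or dishes, so p-values measure only the spread between these samples.

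SR proteins carry RNA recognition motifs and a tail of repeated arginine and serine pairs. They bind exonic enhancers and help the spliceosome recognise an exon, and several also accompany the spliced message out of the nucleus. Most hnRNP proteins coat the nascent transcript, and several of them, such as hnRNP A1, act against exon inclusion. The RBM proteins share an RNA recognition motif and little else: some are parts of the spliceosome, some belong to the exon junction complex, the nuclear exosome adaptors or the machinery that methylates RNA, and some work on pre-ribosomes in the nucleolus.

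The libraries held 43061102 to 45293829 counted reads with GSK101 and 43973072 to 45705238 in Ctrl. Of the markers of disc fibroblasts and fibrochondrocytes, 10 of the 11 found reached a mean of 1 RPKM (counted reads scaled by gene length and by the library's total) in a group, and their summed level was 9930.2 to 11344.7 RPKM with GSK101 and 10864.2 to 11929.4 RPKM in Ctrl. The exception was the cartilage collagen Col2a1, at a mean of 0.0164 RPKM in both groups. The 14 markers found for leukocytes, endothelium, epithelium, nerve, glia, muscle and blood summed to 17.6 to 21.5 RPKM with GSK101 and 18.9 to 21.5 RPKM in Ctrl, with Krt5 at 0 in every GSK101 library, Hbb at 0 in every Ctrl library, and the macrophage marker Cd68 the only leukocyte marker above 1 RPKM. The sums hide single markers that changed. In the disc list the PDGF receptor Pdgfra (16.0 RPKM with GSK101 and 11.7 RPKM in Ctrl), Lum (47.2 and 32.0 RPKM), Dcn (23.1 and 17.0 RPKM) and Fn1 (1098 and 887 RPKM) were called higher, and Pdgfrb (52.2 and 61.9 RPKM) was called lower. Of these calls that of Pdgfra held in all 16 other settings tried; leaving out 1 library ended that of Lum (GSK101 replicate 2), Pdgfrb (GSK101 replicate 1 or 3), Fn1 (GSK101 replicate 1 or 2, Ctrl replicate 2 or 3) and Dcn (any but GSK101 replicate 3), with adjusted p up to 0.0517, 0.0658, 0.494 and 0.102 over all settings for Lum, Pdgfrb, Fn1 and Dcn. Among the other markers the endothelial Kdr (1.01 RPKM with GSK101 and 0.551 RPKM in Ctrl, adjusted p = 0.00875) was called higher while endothelial Cdh5 was at or near 0. The neuronal Tubb3 (4.75 and 6.01 RPKM, adjusted p = 0.0192) was called lower, not without GSK101 replicate 2 or 3 or Ctrl replicate 1 (adjusted p up to 0.0598). The part of these markers in the results below was not tested. Of 12801 genes that passed the filter on low values, limma called 20.1% higher and 11.9% lower with GSK101 at an adjusted p under 0.05.

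Many transcripts of the 3 families were higher with GSK101, by small amounts. Of the 67 genes 61 passed the filter and were tested, of which 34 were called higher, 1 was called lower and 26 were not called. The share called higher was 55.7%, where 20.1% of all genes tested were. In 44 of the 61 every GSK101 library lay above every Ctrl library, and in 2 every GSK101 library lay below, against 28.5% and 18.7% of all genes tested. The median log2 fold change was 0.22 over the 61 genes and 0.03 over all genes tested, on the log2(RPKM + 0.5) scale used for every log2 fold change here. Rbm27 and Rbm25l1 alone of the 61 had a ratio of group means of 1.5 or more in either direction. In bulk RNA a change in the make-up of the culture and a change in the RNA of each cell cannot be told apart. The proliferation marker Mki67, which is in none of the families, averaged 35.4 ± 0.26 RPKM with GSK101 and 16.1 ± 0.84 RPKM in Ctrl (SD, n = 3), and the part of this difference in the result was not tested.

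**Figure D1:**
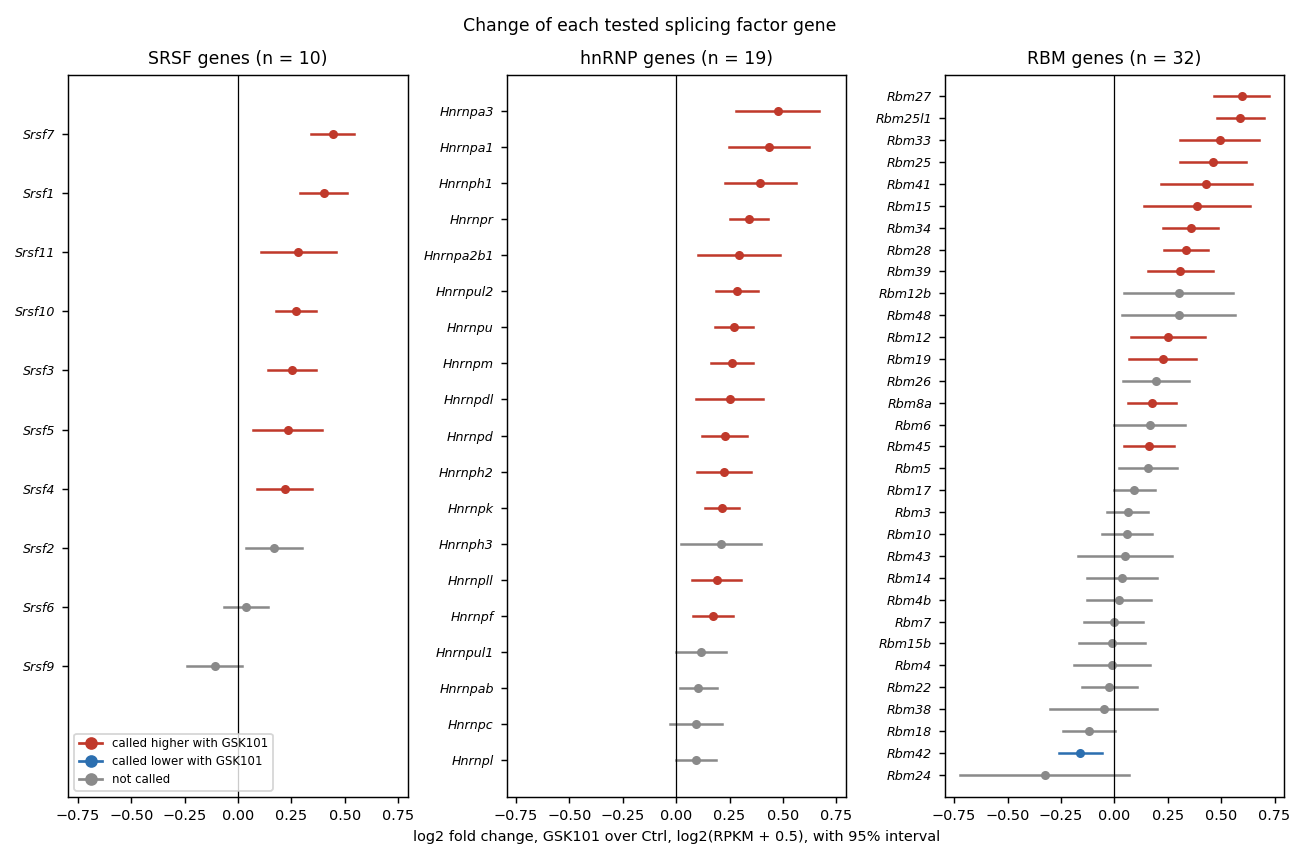
Log2 fold change of GSK101 over Ctrl, with its 95% interval, for the 61 tested genes in 3 panels by family. Red marks genes called higher, blue the gene called lower and grey those not called. All 19 hnRNP estimates lie right of 0, while the RBM estimates spread from -0.33 to 0.60.

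As a share of all counted reads the families also lay higher with GSK101. The hnRNP genes took 1.23%, 1.25% and 1.35% of the reads in GSK101 replicates 1 to 3 and 0.989%, 1.07% and 1.06% in Ctrl replicates 1 to 3. The SRSF genes took 0.181%, 0.178% and 0.192% with GSK101 and 0.153%, 0.159% and 0.153% in Ctrl. The RBM genes took 0.295%, 0.295% and 0.306% with GSK101 and 0.248%, 0.260% and 0.254% in Ctrl. The groups did not overlap for any of the families, and hnRNP transcripts made up most of the sum. GSK101 replicate 3 stood highest in each family and was the highest of its group for 38 of the 61 tested genes. Ctrl replicate 1 was the lowest of its group for 29. Neither count was made over all genes.

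**Figure D2:**
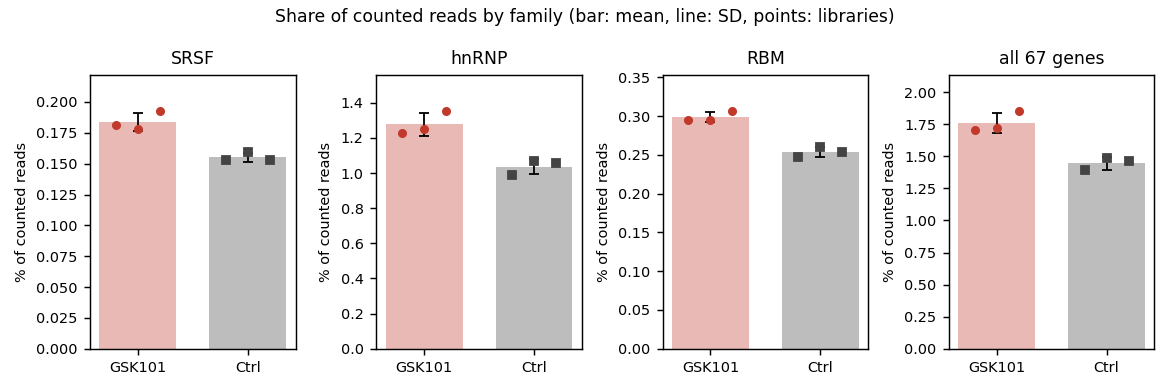
Share of all counted reads, in percent, taken by the genes of each family and by all 67 genes, with GSK101 at the left and Ctrl at the right of each panel. Bars are means, lines the SD over 3 libraries and points the libraries; all 67 genes together took 1.76 ± 0.079% with GSK101 and 1.45 ± 0.050% in Ctrl.

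The stretches before the transcription start are shown for the gene with the largest rise of each family. They are 250 bases each, on the plus strand, from RefSeq on the build GRCr8, which is not the build of the deposited table. Capitals mark the letters CCAAT or its reverse complement ATTGG, bound by the factor NF-Y, and GGGCGG or its reverse complement CCGCCC, bound by SP and KLF factors.
Srsf7 (chr6:20563802-20564051, plus strand): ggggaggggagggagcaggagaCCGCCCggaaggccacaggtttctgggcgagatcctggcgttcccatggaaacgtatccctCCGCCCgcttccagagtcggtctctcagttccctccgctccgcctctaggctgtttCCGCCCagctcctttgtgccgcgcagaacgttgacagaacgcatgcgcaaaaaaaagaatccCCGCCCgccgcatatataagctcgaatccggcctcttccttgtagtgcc
Hnrnpa3 (chr3:80985684-80985933, plus strand): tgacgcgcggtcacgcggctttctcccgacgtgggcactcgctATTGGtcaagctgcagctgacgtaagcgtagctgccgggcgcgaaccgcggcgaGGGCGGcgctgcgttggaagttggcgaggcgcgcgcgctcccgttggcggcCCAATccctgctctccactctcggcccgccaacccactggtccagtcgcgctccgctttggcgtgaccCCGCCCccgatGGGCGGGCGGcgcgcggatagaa
Rbm27 (chr18:34524280-34524529, plus strand): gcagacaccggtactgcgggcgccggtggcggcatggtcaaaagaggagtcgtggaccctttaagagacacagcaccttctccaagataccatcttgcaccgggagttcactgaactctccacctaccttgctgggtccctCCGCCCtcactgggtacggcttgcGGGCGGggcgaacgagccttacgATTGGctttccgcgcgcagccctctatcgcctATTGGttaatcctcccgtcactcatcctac

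Srsf7 held 4 GGGCGG matches and no CCAAT, Hnrnpa3 held 4 GGGCGG, a pair of which overlap in 2 letters, and 2 CCAAT, and Rbm27 held 2 of each. An entry was found for 61 of the 67 genes, and both strands were searched. GGGCGG lay in 34 of the 61 stretches (55.7%) and in 32.4% of the 27457 stretches of all RefSeq genes in the table. It was in 9 of 11 SRSF, 13 of 18 hnRNP and 12 of 32 RBM genes. CCAAT lay in 32 of the 61 (52.5%) and in 34.3% of all, with 13 of 18 hnRNP, 4 of 11 SRSF and 15 of 32 RBM genes. Among the genes called higher GGGCGG was in 19 of 32 and CCAAT in 17, among the remaining genes with an entry in 15 and 15 of 29. The stretches of the splicing factor genes had a median GC content of 61.2%, against 52.0% for all genes, and a median of 20 CG letter pairs against 6. The set of all genes was not limited to genes expressed in these cells and was not matched for GC content. The AP-1 letters TGANTCA were in 2 of 61 stretches (3.28%) and in 6.36% of all, the CRE letters TGACGTCA in 1 and in 1.7%, the E-box CACGTG in 7 (11.5%) and in 5.79%, and the ETS letters CCGGAAGT in 4 (6.56%) and in 3.29%. These matches describe the letters and show no binding.

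Among the SRSF genes 7 of the 10 tested rose and none fell (0 lower at an unadjusted p under 0.05, and 0 with limma-voom). The log2 fold changes had a median of 0.24. Of all genes tested 20.1% rose and 11.9% fell, so with 10 genes the lack of falls says little. The most abundant by length-scaled level was Srsf5. The largest increase was that of Srsf7, an SR protein that shuttles between nucleus and cytoplasm and serves as an adaptor for mRNA export. Srsf7 lies at chr6:2880518-2886465 on the minus strand of Rnor_6.0, the build of the file. On GRCr8, the build of the stretch printed above, it lies on the plus strand. Srsf7 had 108.3, 104.3 and 111.3 RPKM in the GSK101 libraries and 77.6, 82.3 and 77.9 RPKM in the Ctrl libraries. The lowest GSK101 library lay well above the highest Ctrl library, and Srsf7 rose by 0.44 (log2; SE 0.04, limma adjusted p = 0.000419). Srsf1, the founding SR protein, on chromosome 10 from 75335146 to 75341197, had 32.3, 31.3 and 33.8 RPKM with GSK101 and 23.7, 24.6 and 25.1 RPKM in Ctrl. These groups were also far apart relative to their spread, and Srsf1 rose by 0.40 (SE 0.05, adjusted p = 0.000872). Srsf10, known as a splicing repressor when it loses its phosphates, had 154.6, 150.4 and 156.3 RPKM with GSK101 and 123.8, 126.4 and 131.5 RPKM in Ctrl. It rose by 0.27 (SE 0.04, adjusted p = 0.00211), and with Srsf7 and Srsf1 it makes the 3 SRSF genes called under each of 16 other settings tried.

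The other rises of the family were less firm. Srsf11 had 133.2, 143.4 and 147.9 RPKM with GSK101 and 113.8, 129.5 and 106.3 RPKM in Ctrl, with no overlap but a wide spread in Ctrl, and rose by 0.28 (SE 0.08, adjusted p = 0.0239). It lost its call without Ctrl replicate 1 or 3, without GSK101 replicate 2 or 3 and with no filter on low values, with adjusted p from 0.00284 to 0.0724 over all settings. Srsf5 had 288.3, 255.9 and 310.3 RPKM with GSK101 and 235.9, 237.7 and 252.0 RPKM in Ctrl, so GSK101 replicate 2 stood barely above Ctrl replicate 3. Its rise of 0.23 (SE 0.07, adjusted p = 0.0387) was lost without GSK101 replicate 1 or 3, without Ctrl replicate 1 or 2, with median-ratio scaling and with no filter, the adjusted p running from 0.00811 to 0.107. Srsf3, which encodes the smallest SR protein, rose by 0.25 (adjusted p = 0.00639) but by 0.12 with the gene length trend removed, which ended the call (adjusted p from 0.000811 to 0.136 over all settings), and Srsf4 rose by 0.22 (adjusted p = 0.0202, from 0.00557 to 0.0638 over all settings), a call lost without GSK101 replicate 2 or 3 and with quantile normalization. Srsf2, a component of nuclear speckles, missed the threshold at 0.17 (95% interval 0.04 to 0.30) although its groups did not overlap, and passed without Ctrl replicate 1 and in 3 other settings (adjusted p from 0.0311 to 0.175). Srsf6 had a log2 fold change of 0.04 (-0.06 to 0.14), which ran from -0.06 to 0.08 over the other settings, and Srsf9 one of -0.11 (-0.24 to 0.02). Srsf12, at a mean of 0.291 RPKM with GSK101 and 0.292 RPKM in Ctrl on 31 to 40 reads per library, stayed under the filter.

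**Figure D3:**
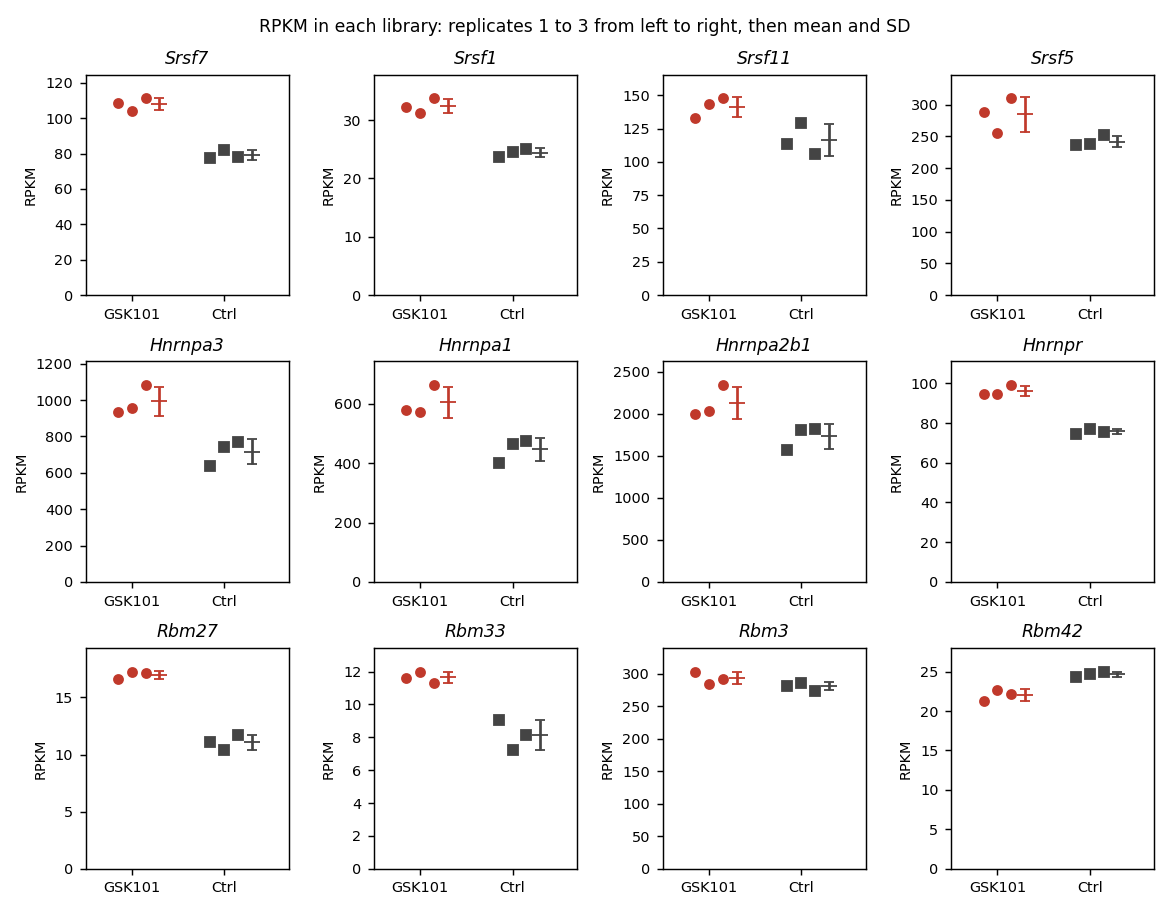
RPKM of 12 genes in each library, with GSK101 at the left and Ctrl at the right of each panel, replicates 1 to 3 as points and the mean with its SD beside them. The groups are apart for all but Rbm3, and GSK101 replicate 3 is the highest library for the 3 hnRNP A genes.

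The hnRNP genes, as taken by symbol, had estimates of 1 sign. Of 19 tested genes 14 rose and none fell (0 lower at an unadjusted p under 0.05, and 0 with limma-voom). All 19 had a log2 fold change above 0, and the median was 0.23. Of all 12801 genes tested 20.1% rose, 11.9% fell and 7135 had a log2 fold change above 0. The abundant hnRNP A group stood out in level. Hnrnpa2b1, whose proteins bind pre-mRNA and carry mRNA in the cytoplasm, had 2003.0, 2030.5 and 2344.0 RPKM with GSK101 and 1565.1, 1812.5 and 1826.3 RPKM in Ctrl. Its groups did not overlap but the replicates of each were spread, and the rise of 0.29 (SE 0.08, adjusted p = 0.0296) lost its call without GSK101 replicate 3, without Ctrl replicate 1 or 2, with median-ratio scaling and with no filter, over a range of adjusted p from 0.00199 to 0.0909. Hnrnpa1, on chromosome 7 from 144865608 to 144871585, had 578.0, 571.8 and 663.1 RPKM with GSK101 and 401.8, 464.6 and 474.4 RPKM in Ctrl. Every GSK101 library lay well above Ctrl, and the rise of 0.43 (SE 0.08, adjusted p = 0.00558) was called under each other setting. Hnrnpa3 had 936.9, 957.6 and 1082.9 RPKM with GSK101 and 636.6, 740.7 and 767.4 RPKM in Ctrl, the largest increase of the family at 0.47 (SE 0.08, adjusted p = 0.00443). The row named Hnrnpa3 joins 10 exons with 1140 bases on chromosome 3 (62481323 to 62487227) and 4 exons with 1071 bases on chromosome 10 (80953006 to 80954332), so its value sums reads from both places and is uncertain as a level of the gene. Reads of hnRNP A genes may also be shared with related copies in the genome, which the table does not separate.

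Outside the A group, Hnrnph1, which binds runs of guanine, had 230.3, 238.7 and 271.5 RPKM with GSK101 and 174.8, 195.0 and 192.5 RPKM in Ctrl. The groups were apart, and Hnrnph1 rose by 0.39 (SE 0.07, adjusted p = 0.00495). Hnrnpr had 94.5, 94.6 and 99.1 RPKM with GSK101 and 74.7, 77.2 and 75.3 RPKM in Ctrl, with no overlap and a rise of 0.34 (SE 0.04, adjusted p = 0.00079). Its close relative Syncrip, also called hnRNP Q, had 127.9, 129.3 and 133.0 RPKM with GSK101 and 92.0, 95.4 and 97.5 RPKM in Ctrl and rose by 0.45 (SE 0.04, adjusted p = 0.000279). Syncrip lies outside the symbol rule and is counted below with 43 other splicing regulators, of which 18 rose and 3 fell. Among those that fell was Raly, a relative of hnRNP C, by 0.32. The poly(C) binder Hnrnpk rose by 0.21, the chromatin-associated Hnrnpu by 0.27, its relative Hnrnpul2 by 0.28, and Hnrnpm by 0.26, each called in all 16 other settings. The neighbours Hnrnpdl and Hnrnpd on chromosome 14, whose products bind AU-rich elements, rose by 0.25 and 0.23. Hnrnph2, Hnrnpll and Hnrnpf rose by 0.22, 0.19 and 0.17. The calls of Hnrnph2 and Hnrnpf were lost without GSK101 replicate 2, that of Hnrnpdl without Ctrl replicate 1 or 3 and with no filter, and that of Hnrnpll without GSK101 replicate 1 or 3, without Ctrl replicate 3 and with quantile normalization, where adjusted p reached at most 0.0576, 0.0515, 0.0696 and 0.0793 over all settings for Hnrnph2, Hnrnpf, Hnrnpdl and Hnrnpll.

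The 5 hnRNP genes that were not called had values of 0.21 (Hnrnph3), 0.12 (Hnrnpul1), 0.10 (Hnrnpab), 0.09 (Hnrnpl, a binder of CA repeats) and 0.09 (Hnrnpc, a binder of uridine tracts). Hnrnph3 passed after rescaling to TPM, with limma-voom and with the replicate block (adjusted p from 0.0225 to 0.213 over all settings). Hnrnpab, the fourth most abundant, had 433.7, 436.3 and 443.0 RPKM with GSK101 and 415.3, 409.8 and 397.6 RPKM in Ctrl. Its groups did not overlap, the difference was small (95% interval 0.02 to 0.19 on the log2 scale, adjusted p = 0.0702), and it passed after rescaling to TPM or with quantile normalization (adjusted p from 0.0117 to 0.242 over all settings); exons of Hnrnpab overlap those of LOC103690164 on the opposite strand. For Hnrnpc the interval was -0.03 to 0.22.

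The RBM genes were mixed. Of the 37 genes 32 were tested, 13 rose, 1 fell and 18 were not called, with a median log2 fold change of 0.17. The share called higher was 40.6%, where 20.1% of all genes tested were called higher and 11.9% lower. Rbm27, whose protein belongs with that of Rbm26 to an adaptor of the nuclear RNA exosome, had the largest increase: 16.6, 17.2 and 17.2 RPKM with GSK101 and 11.1, 10.4 and 11.7 RPKM in Ctrl (chromosome 18 from 36596585 to 36656314). That is a ratio of the means of 1.53 and a rise of 0.60 (SE 0.06, adjusted p = 0.000339). Rbm33 had 11.6, 12.0 and 11.3 RPKM with GSK101 and 9.08, 7.23 and 8.16 RPKM in Ctrl, with no overlap and a rise of 0.49 (SE 0.08, adjusted p = 0.00321). Rbm26 itself missed the threshold at 0.19 (95% interval 0.04 to 0.35), and passed after rescaling to TPM and with limma-voom (adjusted p from 0.0182 to 0.554 over all settings).

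Rbm25, a splicing regulator that works with the U1 particle, had 139.8, 150.5 and 153.6 RPKM with GSK101 and 100.1, 117.6 and 104.5 RPKM in Ctrl, a rise of 0.46 (SE 0.07, adjusted p = 0.00199). Rbm25l1, a gene of 1 exon named for its likeness to Rbm25, had 133.0, 140.3 and 144.2 RPKM with GSK101 and 88.3, 94.2 and 94.5 RPKM in Ctrl, a rise of 0.59 (SE 0.05, adjusted p = 0.0002). Both rows moved alike, and the split between them is uncertain: the row of Rbm25 has 948 bases in 6 exons, that of Rbm25l1 3437 bases, and reads from near-identical copies could have been counted to either. Rbm25l1 took 77.2% to 77.5% of the pair's reads with GSK101 and 74.4% to 76.6% in Ctrl. Summed, the pair had 590.0, 625 and 641 RPM (counted reads scaled by the library's total alone) with GSK101 and 398, 435 and 424 RPM in Ctrl, 1.48-fold by the means.

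Several other RBM genes with known roles in splicing or on pre-ribosomes were among the calls. Rbm39, which resembles the U2AF splicing factor, rose by 0.31 (adjusted p = 0.00985), and its exons overlap those of AC118414.1, which lies on the other strand. The nucleolar genes Rbm28, Rbm34 and Rbm19, grouped here after their values were seen, rose by 0.34, 0.36 and 0.23, and the call of Rbm19 was lost in 8 of the 16 other settings, among them those without GSK101 replicate 1 or 2 or Ctrl replicate 2 or 3 (adjusted p from 0.00896 to 0.2). Rbm15, an adaptor of the RNA methylation complex, rose by 0.39 at a mean of 1.34 RPKM with GSK101 and 0.912 RPKM in Ctrl and kept its call in 9 settings, not without GSK101 replicate 1 or 2 or Ctrl replicate 2 or 3 (adjusted p from 0.0058 to 0.092), while its relative Rbm15b had a log2 fold change of -0.01 (95% interval -0.16 to 0.15). Rbm41 rose by 0.43, but its call was lost with the gene length trend removed (0.29 and adjusted p = 0.0545 there, the highest of a range from 0.000325). Rbm12 and Rbm45 rose by 0.25 and 0.16 and kept their calls in 5 and 7 of the 16 settings; Rbm12 lost its call without any single library and Rbm45 without any but Ctrl replicate 3 (adjusted p up to 0.148 for Rbm12 and 0.214 for Rbm45).

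Of the 4 RBM genes with the highest mean RPKM, Rbm25 is described above and the others had smaller differences. Rbm3, a protein induced by cold, had 302.5, 283.9 and 291.7 RPKM with GSK101 and 281.4, 285.6 and 273.4 RPKM in Ctrl. The groups overlapped, with a log2 fold change of 0.06 and a 95% interval of -0.03 to 0.16. Rbm8a, the exon junction protein Y14, had 278.8, 267.0 and 294.7 RPKM with GSK101 and 239.0, 248.9 and 254.3 RPKM in Ctrl. It rose by 0.18 (SE 0.05, adjusted p = 0.0257), a call lost without GSK101 replicate 1 or 3, without Ctrl replicate 1 or 2, with median-ratio scaling and with no filter (adjusted p from 0.00476 to 0.0753). Rbm17, a splicing factor of the early spliceosome, had 138.7, 129.6 and 136.9 RPKM with GSK101 and 128.9, 127.0 and 123.7 RPKM in Ctrl, narrowly apart and not called at 0.09 (-0.00 to 0.19).

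Rbm42 was the only gene of the 61 called lower, with 21.2, 22.6 and 22.2 RPKM with GSK101 and 24.25, 24.7 and 24.96 RPKM in Ctrl (chromosome 1 from 89099277 to 89109230, minus strand). It fell by 0.16 (SE 0.04, adjusted p = 0.0276), and the call was lost after rescaling to TPM, without GSK101 replicate 1 or 3 and without Ctrl replicate 2 or 3, with adjusted p from 0.0101 to 0.111 over all settings. Rbm18 also lay below Ctrl in every GSK101 library without being called (-0.12, 95% interval -0.24 to 0.005). With quantile normalization Rbm18 was called lower (adjusted p from 0.0307 to 0.304 over all settings). The related splicing regulators Rbm5, Rbm6 and Rbm10 had log2 fold changes of 0.16, 0.17 and 0.06, none called. Rbm5 passed after rescaling to TPM and with limma-voom (adjusted p from 0.0297 to 0.47 over all settings). Rbm6 passed without Ctrl replicate 2 (from 0.036 to 0.557). Rbm5 and Rbm6 are neighbours on chromosome 8. Rbm4b, Rbm4 and Rbm14 follow each other on chromosome 1 and had 0.02, -0.01 and 0.04, and Rbm4 and Rbm14 share exon positions on the same strand. Rbm22, of the catalytic spliceosome, and Rbm7, of another exosome adaptor, had -0.02 and -0.00. Rbm24, a muscle splicing factor, had 0.705, 0.896 and 0.409 RPKM with GSK101 and 1.04, 0.801 and 1.01 RPKM in Ctrl, and its log2 fold change of -0.33 had an interval of -0.72 to 0.07. Rbm12b and Rbm48 had 0.30 each, and Rbm43 and Rbm38 had 0.05 and -0.05, without a call. Rbm12b passed after rescaling to TPM and with limma-voom (adjusted p from 0.0335 to 0.198 over all settings). Rbm48 passed without GSK101 replicate 2 (from 0.0446 to 0.212). The sign of Rbm4b, Rbm4, Rbm14, Rbm22, Rbm7, Rbm10, Rbm15b, Rbm38 and Rbm43 turned in at least 1 of the other settings.

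The 5 RBM genes under the filter were scarce. Rbm20, known for splicing titin in heart muscle, averaged 0.349 RPKM with GSK101 and 0.331 RPKM in Ctrl. Rbm11, Rbm44, Rbm46 and Rbm47, known from brain, germ cells or epithelia, had at most 14 reads in any library. Rbm46 had 8 to 14 reads with GSK101 and 4 to 6 reads in Ctrl, and Rbm44 had 1 to 8 with GSK101 and 0 to 4 in Ctrl.

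Gene length moved with the change. It enters the RPKM value itself, but each gene has the same length in all libraries. Length therefore cancels between the groups, apart from the 0.5 added before the log. Across all 12801 tested genes Spearman's rho of length with log2 fold change was 0.18, and the median log2 fold change was 0.10 in the longest class of genes when they were split into 3 classes of like size (2905 bases and more), 0.01 in the middle class and -0.02 in the shortest (up to 1566 bases). As a description over genes of the same libraries, rho was 0.51 over the 32 RBM genes, 0.09 over the 19 hnRNP genes and 0.06 over the 10 SRSF genes. Among the shortest genes 6 of 9 splicing factor genes were called higher, where 12.5% of all genes of that length were. In the middle class 17 of 33 were called against 18.1% of all genes, and in the longest class 11 of 19 against 29.6%. With the length trend of each library removed, 28 of the 61 tested splicing factor genes were called higher, where 14.7% of all tested genes were. They were 14 hnRNP, 6 SRSF and 8 RBM genes, and all 28 were among the 34 rises of the main fit.

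**Figure D4:**
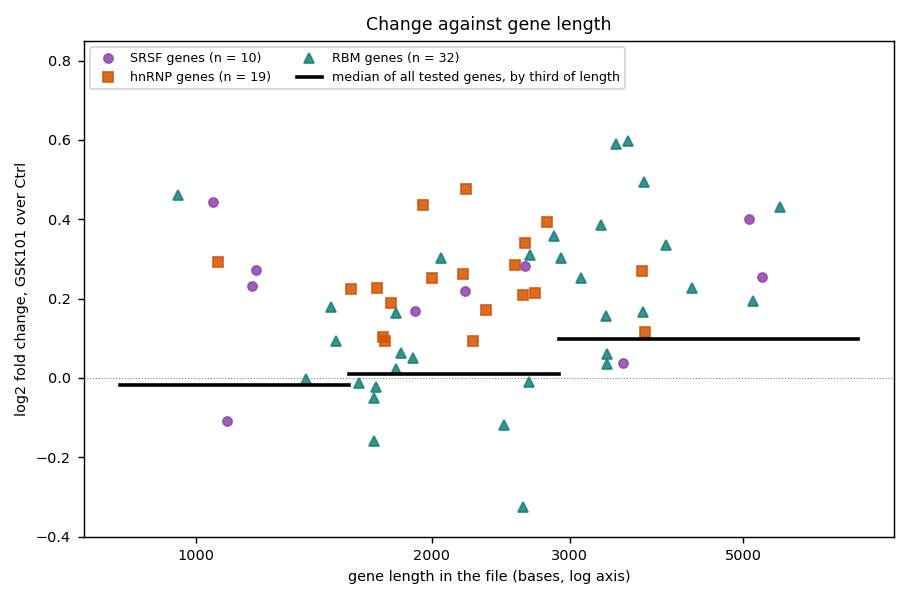
Log2 fold change of GSK101 over Ctrl against gene length in bases (log axis) for the 61 tested genes, by family. Black lines give the median of all tested genes in each class of length, at -0.02, 0.01 and 0.10, drawn over the plotted range. The RBM points climb with length (rho 0.51), while the hnRNP points (rho 0.09) stay above 0 at every length.

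The scaling between libraries moved the counts more than the direction. Rescaled to TPM, 40 of the 61 genes were called higher and 0 lower, against 22.9% and 8.73% of all genes tested. With median-ratio scaling 28 were called higher and 1 lower, against 16.9% and 15.2% of all genes. Quantile normalization gave 29 and 2, against 15.5% and 16.7% of all genes, and limma-voom on the recovered reads 39 and 1, against 23.0% and 12.8%. The median log2 fold change of the 61 genes lay between 0.17 and 0.26 in the 16 other settings, and that of all genes between -0.02 and 0.07. The RBM genes moved most with the length trend removed, to a median of 0.08 from 0.17 in the main fit. The median of all genes also moved, to -0.02 from 0.03. With the trend removed the SRSF and hnRNP medians were 0.21 each, against 0.24 and 0.23 in the main fit. Of the 34 rises 19 were called in each setting, 3 SRSF, 9 hnRNP and 7 RBM genes. The like share was not counted over all genes, so these rises cannot be called more or less stable than others.

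Other genes of the splicing pathway were counted in 4 lists, to be read against the 20.1% of all tested genes called higher, the 11.9% called lower and the median of 0.03. Of 70 tested core spliceosome genes 29 rose (41.4%) and 1 fell; the median was 0.13 on the log2 scale. Dhx15, a helicase that takes spent spliceosomes apart, had 51.6, 50.4 and 52.3 RPKM with GSK101 and 34.8, 37.8 and 38.1 RPKM in Ctrl, a rise of 0.48 (adjusted p = 0.000449). Eftud2, the GTPase of the U5 particle, had 41.3, 41.8 and 41.5 RPKM with GSK101 and 33.5, 29.9 and 30.4 RPKM in Ctrl, a rise of 0.40 (adjusted p = 0.00114). The 1 that fell was Snrpn, an Sm protein of an imprinted locus, with 13.3, 11.8 and 13.8 RPKM with GSK101 and 20.2, 22.4 and 23.7 RPKM in Ctrl. It fell by 0.75 (adjusted p = 0.000519), and its exons overlap those of Snurf on the same strand, which makes its level uncertain.

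Of 25 SR protein kinases and SR-related coactivators 13 rose (52.0%, against 20.1% of all genes tested) and 1 fell (against 11.9%), with a median of 0.16. Prpf4b, a kinase of splicing factors, had 35.8, 34.4 and 39.2 RPKM with GSK101 and 20.4, 23.1 and 23.7 RPKM in Ctrl, which at 0.69 (adjusted p = 0.000507) was above every SRSF, hnRNP or RBM gene. Pnn, an SR-related protein of the exon junction, rose by 0.54 (adjusted p = 0.00241). Son, a speckle protein with a long transcript, rose by 0.37 (adjusted p = 0.00128), but by 0.14 with the length trend removed, where it was not called (adjusted p from 2.09e-05 to 0.106 over all settings). Clk3, a kinase of SR proteins, was the 1 that fell, by 0.22 (adjusted p = 0.0113), and missed the threshold without GSK101 replicate 1 (adjusted p = 0.0502, the highest of a range from 0.00522).

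Of 43 other splicing regulators 18 rose (41.9%, against 20.1% of all genes tested) and 3 fell (against 11.9%), with a median of 0.14. Besides Syncrip, the rises named by rule were Mbnl2 and Celf1, muscleblind and CELF proteins that often oppose each other on shared exons, by 0.37 and 0.44 (adjusted p = 0.000806 for each). The 3 that fell were Khdrbs3, Raly and Ybx1, by 0.55, 0.32 and 0.12 (adjusted p = 0.00139, 0.000993 and 0.0481), and were named after their values were seen, as was Clk3. Raly, a relative of hnRNP C, had 278.1, 273.1 and 284.0 RPKM with GSK101 and 352.7, 353.2 and 337.5 RPKM in Ctrl, while the call of Ybx1 held in 6 of 16 other settings and was lost without each single library (adjusted p from 0.0184 to 0.3). Of 21 genes of the exon junction complex and nonsense-mediated decay 6 rose and none fell (1 lower at an unadjusted p under 0.05, 1 called lower with limma-voom). The share that rose, 28.6%, and the median of 0.06 were near those of all genes tested, 20.1% and 0.03. Etf1, a translation release factor, and Upf2, which links the exon junction to decay, rose by 0.39 and 0.49 (adjusted p = 0.000815 and 0.00164). Smg1, the kinase that phosphorylates Upf1, rose by 0.54 (adjusted p = 0.00213), and by 0.27 with the length trend removed.

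**Figure D5:**
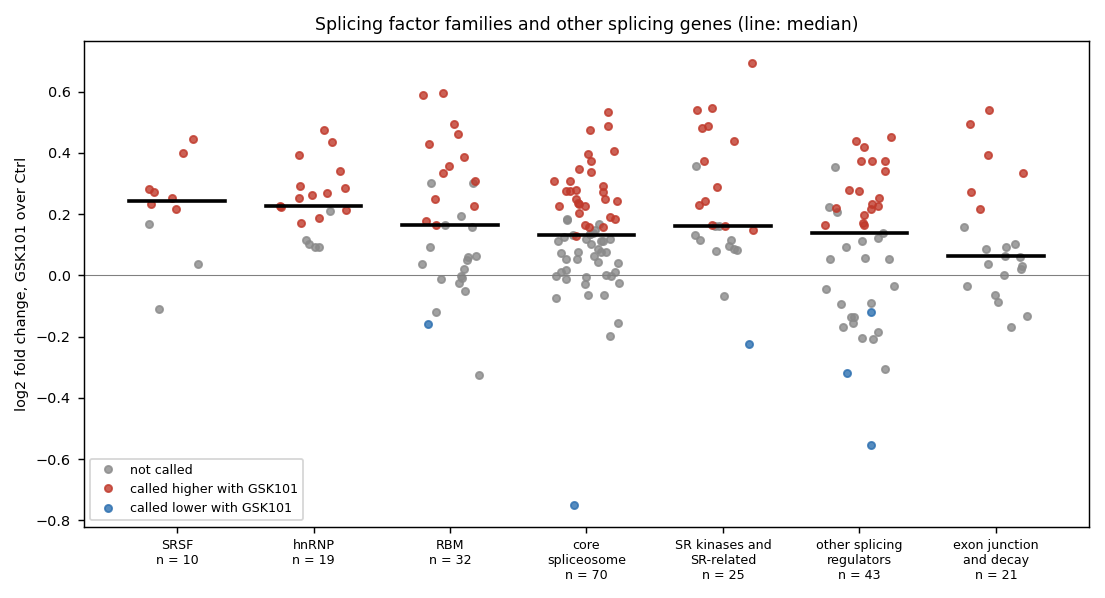
Log2 fold change of GSK101 over Ctrl for the tested genes of the 3 families and of 4 other lists of splicing genes; each point is a gene and each line a median. Red marks genes called higher, blue genes called lower and grey genes not called. Medians run from 0.24 for SRSF genes to 0.06 for exon junction and decay genes, against 0.03 for all genes tested.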

How the data were processed

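The authors deposited 1 table of RPKM values per gene for 6 libraries of polyadenylated RNA, made with a stranded kit with molecular identifiers and sequenced in paired-end mode, per the labels' protocols. The build Rnor_6.0 and, in no stated order or role, edgeR 3.12.1, Subread 1.5.1 with featureCounts, STAR 2.5.3a and Trimmomatic 0.36 are listed per the submitters' processing notes; collapse of identifiers, use of strand and treatment of reads with several matches are not given in the sources used here. RPKM times length was a whole multiple of 1 read, within 0.01, for 100% of values, which gave the read totals; 71.3% to 74.7% of values of 1 to 10 reads were even, so mates may have been counted separately. Replicates of a group differed by more than counting noise (chi-square per gene 2.36 to 7.84).

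Genes were tested with limma 3.58.1 in R 4.3.3, which fitted group alone to log2(RPKM + 0.5) with a mean-variance trend and Benjamini-Hochberg adjustment over 12801 genes with at least 0.5 RPKM in 3 libraries. The procedure was tested on simulated data with log2 changes of 0.5 and 1 in either direction. Smaller changes, which most rises of the families were, were not simulated. A log2 fold change on this scale understates the change of low genes. The median of ratios over genes gave 1 alternative scaling, and a loess curve with a span of 0.3 removed the length trend. Values per library are given for the 4 most abundant genes of a family and up to 4 largest called rises and falls with a mean of at least 1 RPKM in the higher group, and up to 3 genes per other list are named by smallest adjusted p. Genes and lists were chosen with earlier results of these data known. Of the 71, 27, 60 and 21 symbols on the 4 other lists, 70, 26, 57 and 21 were found in the file.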

Additional observations from a re-analysis of the deposited data

How the results depend on the processing

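The alternatives were 2 pseudocounts, 2 filters, 3 scalings, the length trend removed, limma-voom, the replicate block and leaving out each library. The counts of rises moved by over 1.5 times in few of them: to 8 RBM genes with no filter or with the length trend removed, and to 8 SR kinases and SR-related genes with quantile normalization. Leaving out 1 library gave 4 to 6 SRSF rises, the 4 without GSK101 replicate 3, 12 to 13 hnRNP rises and 8 to 10 RBM rises, the 8 without GSK101 replicate 1. Falls, which were few, moved to 0 (TPM) and 2 (quantile) for RBM genes and 0 to 1 without 1 library. For core spliceosome genes they moved to 2 with median-ratio scaling, quantile normalization, the length trend removed or limma-voom, and were 1 to 2 without 1 library. SR kinases and SR-related genes had 2 with the length trend removed and 0 to 1 without 1 library. Other splicing regulators had 6 with median-ratio scaling or quantile normalization and 5 with the length trend removed. Exon junction and decay genes had 1 with quantile normalization, the length trend removed or limma-voom. The cause was not tested; fits without a library have fewer samples. The genes picked by rule, as given under processing, were also followed through the other settings. Of these tests 466 kept direction and side of the threshold, 28 lost the call, 2 gained it and none reversed. Most of these genes were picked for a high level or a large or firm change, which favours stable results. Other genes described above turned sign in some setting, among them Srsf6 and several RBM genes.

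With the replicate block 7 SRSF, 15 hnRNP and 12 RBM genes rose and 1 RBM gene fell. Deviations of same-numbered libraries correlated at 0.05, -0.06 and 0.05, so they shared no clear pattern. These values cannot tell if same-numbered libraries came from the same animal or day. The genes with at most 14 reads in a library fell under the filter and were not tested.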
